A study of Mus musculus with 9 samples.

Results

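The NF-kB module described here is a set of 32 mouse genes that encode the NF-kB subunits, the proteins that hold them back, the kinases and adaptors that release them, and targets that feed back on the pathway. Its members were taken by symbol from the deposited count table, where all 32 matched 1 gene each among 57126 genes. The table holds RNA sequencing of plasmacytoid dendritic cells (pDCs) isolated by flow cytometry and treated with oxidized mitochondrial DNA (Ox-mtDNA), with mitochondrial DNA (mtDNA) or with phosphate-buffered saline (PBS, the vehicle), 3 libraries per treatment and 9 in all. The labels give no strain, age, dose or treatment time, and they do not say whether the libraries of a group came from separate animals or cultures, and p-values therefore describe how far these libraries scatter.

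NF-kB is a family of dimeric transcription factors that wait in the cytoplasm bound to inhibitors of the IkB type. In the canonical pathway a receptor such as the endosomal DNA sensor TLR9 acts through ubiquitin ligases and the kinase TAK1 on the IkB kinase complex, which marks IkB for destruction and frees the dimer to enter the nucleus. In the noncanonical pathway the kinase NIK, normally kept low by TRAF and cIAP proteins, drives the processing of the Nfkb2 product, which pairs with RelB. Freed NF-kB switches on its own inhibitors, among them Nfkbia and Tnfaip3, so the RNA of these feedback genes is widely used as a readout of the pathway. In pDCs, NF-kB signalling is known for cytokine production and maturation, alongside the interferon response that these cells are specialised in.

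Promoters of feedback genes carry the sequence that NF-kB dimers bind, and those of 4 members whose levels are described below are shown for that reason. RefSeq gives windows of 250 bases before to 50 bases after the start site (build GRCm38.p6, an earlier build than the GRCm39 of the count table) for 27 of the 32 members. Nfkb1, Relb, Nfkbiz, Ikbkb and Map3k8 have no entry there. Of the 4 genes shown, Tnfaip3 has 2 windows and Nfkb2 has 3, and the window with the most matches was chosen. The other Tnfaip3 window holds 0 matches. The bases before the start are printed 5′ to 3′ in the direction of the gene. Capitals mark matches to the NF-kB consensus decamer, searched on both strands, where neighbouring capitals can be matches that overlap.
Nfkbia: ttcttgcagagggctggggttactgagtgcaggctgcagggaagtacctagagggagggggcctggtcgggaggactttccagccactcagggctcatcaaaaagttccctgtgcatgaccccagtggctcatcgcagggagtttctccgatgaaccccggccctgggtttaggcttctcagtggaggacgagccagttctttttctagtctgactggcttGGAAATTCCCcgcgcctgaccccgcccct
Tnfaip3: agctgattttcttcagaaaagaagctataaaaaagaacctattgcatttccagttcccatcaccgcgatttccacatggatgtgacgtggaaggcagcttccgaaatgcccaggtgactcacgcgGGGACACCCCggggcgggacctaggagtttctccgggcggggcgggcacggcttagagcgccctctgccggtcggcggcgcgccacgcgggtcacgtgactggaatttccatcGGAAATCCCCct
Rel: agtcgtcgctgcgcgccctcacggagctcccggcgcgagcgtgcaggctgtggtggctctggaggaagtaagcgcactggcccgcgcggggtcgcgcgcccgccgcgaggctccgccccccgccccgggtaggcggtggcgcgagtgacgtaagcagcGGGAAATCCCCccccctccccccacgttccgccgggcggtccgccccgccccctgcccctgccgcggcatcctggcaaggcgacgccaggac
Nfkb2: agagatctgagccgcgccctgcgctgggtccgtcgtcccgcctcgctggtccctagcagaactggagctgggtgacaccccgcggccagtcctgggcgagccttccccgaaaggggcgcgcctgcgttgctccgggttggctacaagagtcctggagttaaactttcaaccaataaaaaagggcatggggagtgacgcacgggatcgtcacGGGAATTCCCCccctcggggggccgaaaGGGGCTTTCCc

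These windows lie on the minus strand at chr12:55492648-55492897 (Nfkbia), chr10:19015411-19015660 (Tnfaip3) and chr11:23770970-23771219 (Rel), and on the plus strand at chr19:46304487-46304736 (Nfkb2). The match in Nfkbia starts at position -29 relative to the start site, and those in Tnfaip3 start at -125 and -12. Rel holds overlapping matches that start at -92 and -91. In Nfkb2, overlapping matches start at -39 and -38, and another starts at -11. Of the 27 members with a window, 14 (51.9%) held at least 1 match, against 1388 of 27025 genes in the whole RefSeq table (5.14%). In the GRCm39 annotation of the count table the genes lie at chr12:55536195-55539432 (Nfkbia), chr10:18876658-18891158 (Tnfaip3), chr11:23686847-23720970 (Rel) and chr19:46292759-46300824 (Nfkb2), and Nfkbiz at chr16:55631738-55659262 on the minus strand. Matches were found for 4 of 5 ubiquitin-editing inhibitors, but for 1 of 5 kinases or their activators and 1 of 5 TRAF and cIAP adaptors. Among other known NF-kB targets 7 of 21 (33.3%) held a match, and among other genes of the pathway 3 of 27 (11.1%). A match is a run of letters and does not show that a dimer bound there.

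Total counts per library ranged from 16029951 to 25378884, and the module took 0.197% to 0.462% of them. Of the 57126 genes, 17555 were tested, all 32 members among them. All 19 pDC markers had counts in every library, as did all 9 B cell markers and all 8 markers each of type 1 and type 2 conventional dendritic cells. The summed level of the pDC markers was 5290 to 11700 CPM (counts scaled to a common library total) in Ox-mtDNA cells, 7500 to 11600 CPM in mtDNA cells and 9420 to 13800 CPM in PBS cells. The B cell markers summed to 2860 to 3120 CPM in Ox-mtDNA cells, 1770 to 3040 CPM in mtDNA cells and 2530 to 3310 CPM in PBS cells. Replicate 3 stood apart in every group. The level of Xist, which coats the silenced X chromosome, was 818 to 2090 CPM in the replicate 3 libraries and at most 0.846 CPM in the others. The 820 tested genes with a transcript GC content over 60% had median log2 differences of -3.94 to -3.21 in the replicate 3 libraries from the mean of PBS replicates 1 and 2. Libraries with the same number deviated together from their group means, with correlations of 0.481 to 0.889 over the 9 pairs of libraries. Between groups, replicates 1 and 2 with different numbers correlated as well, at 0.514 to 0.685. These correlations therefore set replicate 3 apart and do not show that numbers 1 and 2 mark pairs. Differences and counts by replicate number below match libraries by number all the same.

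The shift of replicate 3 reached the module. Its members were plotted by the difference of replicate 3 from the mean of replicates 1 and 2 in the same group. Across the 32 members, which share these libraries, that difference ran with transcript GC content at a Spearman correlation of -0.71 in Ox-mtDNA cells, -0.63 in mtDNA cells and -0.69 in PBS cells. Over 16750 genes the same correlations were weaker, at -0.33, -0.34 and -0.44 in the same order of groups. The 11 members with a GC content over 55% had a median log2 difference of -2.94 in Ox-mtDNA cells, -3.29 in mtDNA cells and -3.29 in PBS cells, and the 21 others had medians of -0.04, 0.16 and -0.02 in the same order of groups. In PBS cells Bcl3 (57.9% GC) was lower in replicate 3 by a log2 difference of -7.37, Nfkb2 (59.1% GC) by -6.49 and Relb (60.8% GC) by -5.95. Rel (42.5% GC) and Tnfaip3 (48.5% GC) were at 0.16 and -0.38. The part of GC content in these differences was not tested. For members that fall far in replicate 3 of every group, groups can overlap even where every replicate number differs the same way. The counts of members without overlap given below can miss such members.

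**Figure D1:**
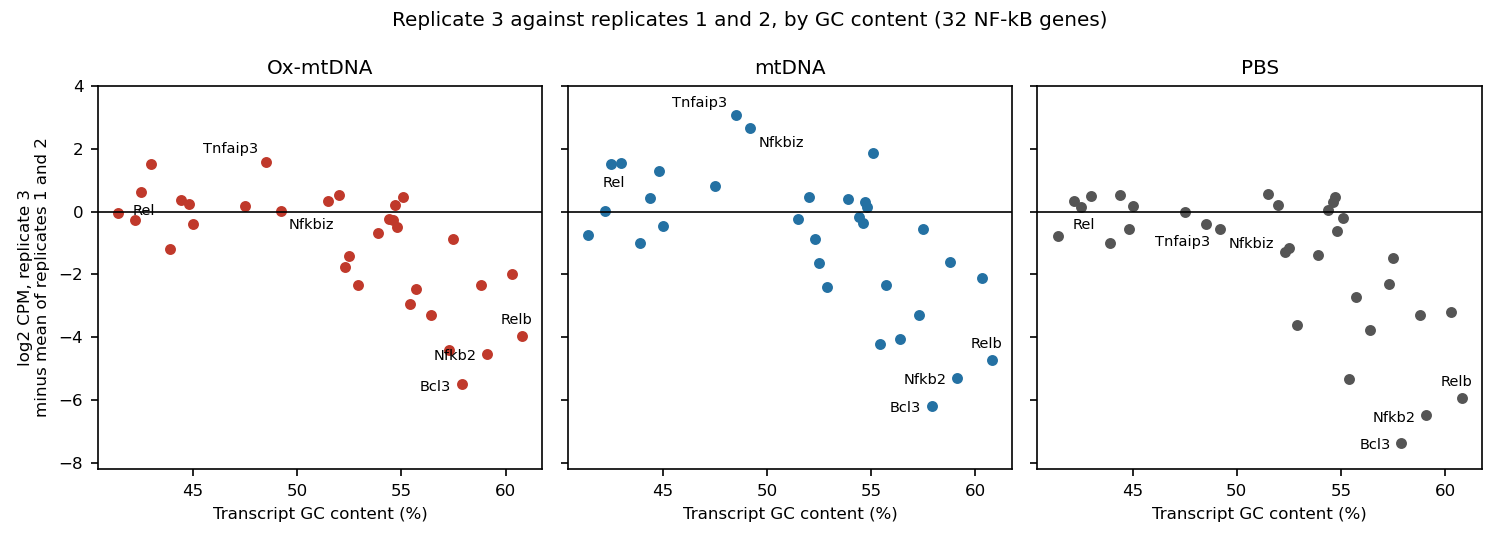
The log2 CPM of replicate 3 minus the mean of replicates 1 and 2 (vertical axis) is plotted against transcript GC content in percent (horizontal axis) for the 32 NF-kB genes, one point per gene, in Ox-mtDNA, mtDNA and PBS cells. Bcl3 and Nfkb2 lie lowest in all 3 groups, at the GC-rich end, and Tnfaip3 and Nfkbiz stand highest in mtDNA cells.

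The 5 subunits are the DNA-binding part of the system. Per kilobase of transcript, Nfkb1, which encodes the most common partner of RelA, was the highest member in PBS cells at 104 CPM per kilobase, and Rel, Rela, Nfkb2 and Relb were at 23.9, 24.6, 23.8 and 19.0. Rel, the c-Rel subunit of activated lymphoid and dendritic cells, had 215, 391 and 449 CPM in Ox-mtDNA cells (replicates 1, 2 and 3), 214, 211 and 607 CPM in mtDNA cells, and 167, 176 and 192 CPM in PBS cells. All Rel values of both DNA treatments lay above all PBS values, though not under upper quartile scaling. Rela, which encodes the main activating subunit, had 110, 264 and 33.5 CPM in Ox-mtDNA cells, 103, 99.4 and 33.7 CPM in mtDNA cells, and 94.9, 95.7 and 9.72 CPM in PBS cells. Its groups overlapped, with replicate 3 lowest in each, though within every replicate number both DNA treatments were above PBS.

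Relb and Nfkb2, the pair of the noncanonical pathway, split the Ox-mtDNA libraries apart. Relb had 16.1, 207 and 3.66 CPM in Ox-mtDNA cells, 114, 101 and 4.02 CPM in mtDNA cells, and 69.7, 55.3 and 0.987 CPM in PBS cells. Nfkb2 had 52.8, 354 and 5.88 CPM in Ox-mtDNA cells, 238, 218 and 5.76 CPM in mtDNA cells, and 168, 132 and 1.63 CPM in PBS cells. For both genes Ox-mtDNA replicate 1 was below, and Ox-mtDNA replicate 2 above, all of replicates 1 and 2 of the other groups. The replicate 3 values rest on few reads, 71, 74 and 26 counts of Relb and 114, 106 and 43 counts of Nfkb2 in Ox-mtDNA, mtDNA and PBS cells. Of the exon bases of Nfkb2, 19.7% are shared with Psd and another annotated gene, and the counting gave a fragment there to each gene, so its counts are uncertain to that extent. Nfkb1 had 421, 602 and 188 CPM in Ox-mtDNA cells, 685, 522 and 192 CPM in mtDNA cells, and 611, 448 and 234 CPM in PBS cells, with all groups overlapping.

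Of the inhibitors that hold NF-kB in the cytoplasm, Nfkbia encodes IkB alpha, the fastest feedback inhibitor. It had 97.1, 205 and 195 CPM in Ox-mtDNA cells, 144, 110 and 459 CPM in mtDNA cells, and 107, 89.3 and 84.9 CPM in PBS cells. All mtDNA values were above the PBS values, while Ox-mtDNA replicate 1 lay within the PBS range. Nfkbib, which encodes the slower IkB beta, had 47.5, 120 and 19.0 CPM in Ox-mtDNA cells, 50.4, 57.1 and 12.2 CPM in mtDNA cells, and 49.4, 48.5 and 5.35 CPM in PBS cells, and 14.8% of its exon bases are shared with Ccer2. Nfkbie, which encodes IkB epsilon, had 51.0, 162 and 16.3 CPM in Ox-mtDNA cells, 153, 156 and 30.3 CPM in mtDNA cells, and 109, 109 and 16.6 CPM in PBS cells. The groups of both genes overlapped, with replicate 3 lowest in each, though within every replicate number both genes were higher in mtDNA than in PBS cells.

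The nuclear IkB proteins act on NF-kB at the DNA, and Nfkbiz, which encodes the IkB zeta coactivator of secondary response genes, had the largest fold change over PBS of the 3 under either treatment. Nfkbiz had 232, 113 and 165 CPM in Ox-mtDNA cells, 59.6, 47.0 and 333 CPM in mtDNA cells, and 36.0, 33.9 and 23.5 CPM in PBS cells. Every library of either DNA treatment was above every PBS library, and in mtDNA cells replicate 3 was far above the other two. Nfkbid, which encodes IkBNS, had 226, 119 and 7.64 CPM in Ox-mtDNA cells, 88.8, 104 and 9.84 CPM in mtDNA cells, and 75.3, 89.1 and 16.7 CPM in PBS cells, with replicate 3 lowest in each group. Bcl3 ranged from 1.39 to 102 CPM in Ox-mtDNA cells, from 1.20 to 95.0 CPM in mtDNA cells and from 0.418 to 75.5 CPM in PBS cells, where the lowest value of each range came from replicate 3 and rested on 27, 22 and 11 counts.

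**Figure D2:**
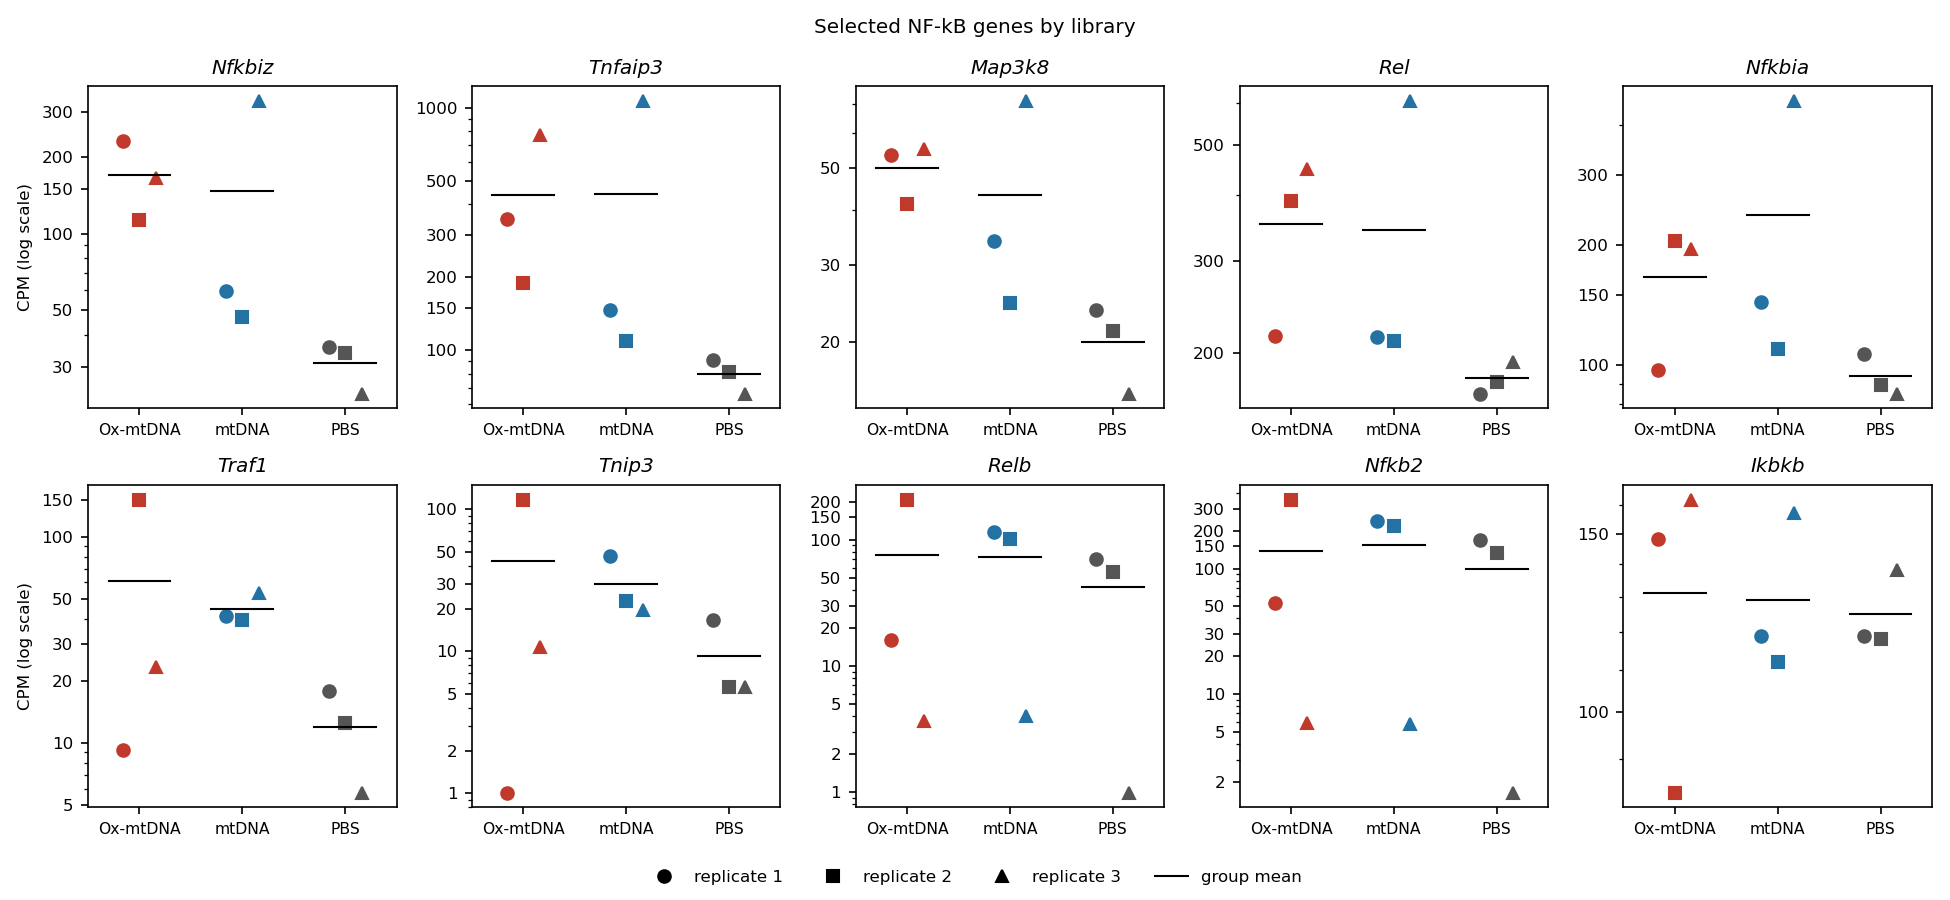
CPM on a log scale (vertical axis) is plotted for 10 NF-kB genes in each library, by treatment (horizontal axis), with the marker shape giving the replicate number and the line the group mean. Nfkbiz, Tnfaip3, Map3k8 and Rel lie above the PBS libraries in all 6 libraries of the DNA treatments, while Relb, Nfkb2, Traf1 and Tnip3 differ between Ox-mtDNA replicates 1 and 2 by more than the group means differ.

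Among the kinases that release NF-kB, the IkB kinase and TAK1 genes had small fold changes. The log2 fold changes of Chuk and Ikbkb (the catalytic subunits of the IkB kinase), Ikbkg (its scaffold NEMO), Map3k7 (TAK1) and Tab2 (a TAK1 adaptor) ran from -0.44 to 0.09 in Ox-mtDNA over PBS cells, from -0.14 to 0.05 in mtDNA over PBS cells and from -0.35 to 0.09 in Ox-mtDNA over mtDNA cells. Ikbkb ranged from 83.3 to 162 CPM in Ox-mtDNA cells, from 112 to 157 CPM in mtDNA cells and from 118 to 138 CPM in PBS cells. Ikbkg was lower than PBS in all 3 Ox-mtDNA replicates, with 51.3, 67.0 and 75.0 CPM in Ox-mtDNA cells, 82.6, 90.6 and 73.8 CPM in mtDNA cells, and 71.7, 78.5 and 111 CPM in PBS cells, although the Ox-mtDNA and PBS ranges overlapped. Map3k14, which encodes NIK, ranged from 5.98 to 76.7 CPM in Ox-mtDNA cells, from 4.57 to 78.4 CPM in mtDNA cells and from 3.8 to 53.3 CPM in PBS cells. Its log2 fold change was 0.23 (SE 1.26) in Ox-mtDNA over PBS cells, 0.53 (SE 1.27) in mtDNA over PBS cells, where it was higher in all 3 replicate numbers, and -0.29 (SE 1.26) in Ox-mtDNA over mtDNA cells. Map3k8, which encodes the kinase Tpl2 downstream of the IkB kinase, had 53.5, 41.3 and 55.3 CPM in Ox-mtDNA cells, 34, 24.5 and 71.3 CPM in mtDNA cells, and 23.6, 21.2 and 15.2 CPM in PBS cells. Its values in both DNA treatments were above all PBS values.

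Among the enzymes and partners that remove activating ubiquitin chains, Tnfaip3 encodes the ubiquitin-editing brake of NF-kB signalling. It had 347, 190 and 774 CPM in Ox-mtDNA cells, 147, 109 and 1070 CPM in mtDNA cells, and 91.3, 81.1 and 66.2 CPM in PBS cells. All 6 values of the DNA treatments were above the PBS values, with replicate 3 highest in both treatments and lowest in PBS cells. Tnip3, which encodes a binding partner of the Tnfaip3 product, had 1.01, 117 and 10.8 CPM in Ox-mtDNA cells, 47.1, 22.6 and 19.4 CPM in mtDNA cells, and 16.5, 5.57 and 5.62 CPM in PBS cells. Its mtDNA values were all above the PBS values, whereas its Ox-mtDNA values lay both below and above them, the lowest on 15 counts.

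The other members of that group differed less. Tnip1, which encodes a related partner, had 56.8, 131 and 47.0 CPM in Ox-mtDNA cells, 132, 112 and 82.6 CPM in mtDNA cells, and 104, 92.4 and 35.3 CPM in PBS cells. Tnip2 had 31.7, 17.2 and 27.2 CPM in Ox-mtDNA cells, 17.3, 21 and 23.7 CPM in mtDNA cells, and 20.7, 26.7 and 32.1 CPM in PBS cells. Cyld, a deubiquitinase, had 75.5, 153 and 90.0 CPM in Ox-mtDNA cells, 141, 150 and 147 CPM in mtDNA cells, and 127, 131 and 164 CPM in PBS cells. The groups of all 3 genes overlapped.

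The TRAF and cIAP adaptors carry ubiquitin chains to the kinases and restrain NIK. Traf1, an NF-kB-induced member of the family, had 9.25, 151 and 23.3 CPM in Ox-mtDNA cells, 41.0, 39.5 and 53.1 CPM in mtDNA cells, and 17.8, 12.5 and 5.73 CPM in PBS cells. Its mtDNA libraries were alike and above PBS, and its Ox-mtDNA libraries spread on both sides of the mtDNA ones. Birc3, which encodes cIAP2, had 81.4, 212 and 150 CPM in Ox-mtDNA cells, 184, 184 and 328 CPM in mtDNA cells, and 129, 126 and 125 CPM in PBS cells, so mtDNA lay above PBS in every library. Birc2, which encodes cIAP1, had 58.9, 71.9 and 188 CPM in Ox-mtDNA cells, 76.9, 73.5 and 222 CPM in mtDNA cells, and 53.3, 55.7 and 76.7 CPM in PBS cells. Traf2 had 45.2, 71.5 and 40.4 CPM in Ox-mtDNA cells, 51.0, 50.6 and 56.7 CPM in mtDNA cells, and 49.1, 43.0 and 30 CPM in PBS cells. Traf3 ranged from 11.3 to 133 CPM in Ox-mtDNA cells, from 17.5 to 99.4 CPM in mtDNA cells and from 6.49 to 80.0 CPM in PBS cells.

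The effector targets are genes that NF-kB induces in many cells. Icam1, an adhesion molecule, ranged from 37.2 to 296 CPM in Ox-mtDNA cells, from 93.7 to 183 CPM in mtDNA cells and from 49.3 to 123 CPM in PBS cells, and 20.2% of its exon bases are shared with Gm47079. Ier3, an early response gene linked to cell survival, had 7.63, 44.1 and 15.8 CPM in Ox-mtDNA cells, 36.8, 42.1 and 35.3 CPM in mtDNA cells, and 26.1, 30 and 29.1 CPM in PBS cells. Its mtDNA libraries were all above the PBS libraries, and its Ox-mtDNA libraries lay on both sides of them. Sod2, the mitochondrial superoxide dismutase, had 39.8, 79.1 and 46.9 CPM in Ox-mtDNA cells, 54.9, 60.3 and 44.8 CPM in mtDNA cells, and 58.4, 67.3 and 76.9 CPM in PBS cells. Tnfaip2 had 63.7, 52.4 and 7.48 CPM in Ox-mtDNA cells, 179, 90.6 and 6.74 CPM in mtDNA cells, and 128, 53.0 and 2.01 CPM in PBS cells.

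Ox-mtDNA over PBS asked what the oxidized DNA does to the module. Nfkbiz, Tnfaip3 and Map3k8 were higher in Ox-mtDNA cells in all 3 replicate numbers, but no gene passed the threshold after adjustment. Nfkbiz averaged 170 ± 59.4 CPM in Ox-mtDNA cells and 31.1 ± 6.71 CPM in PBS cells (SD, n = 3 each), and its fitted log2 fold change was 2.45 (SE 0.755, adjusted p = 0.472 in the edgeR quasi-likelihood test with Benjamini-Hochberg adjustment). Tnfaip3 averaged 437 ± 302 CPM in Ox-mtDNA cells and 79.6 ± 12.6 CPM in PBS cells, with a fitted log2 fold change of 2.46 (SE 0.926, edgeR adjusted p = 0.473). Map3k8 averaged 50 ± 7.60 CPM in Ox-mtDNA cells and 20 ± 4.33 CPM in PBS cells, with a fitted log2 fold change of 1.32 (SE 0.42, edgeR adjusted p = 0.472). Without replicate 3 in any group the log2 fold changes were 2.31 for Nfkbiz, 1.65 for Tnfaip3 and 1.09 for Map3k8. In edgeR with the replicate number as a block they were 2.33 (adjusted p = 0.151), 1.98 (0.174) and 1.28 (0.16) in the same order.

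Traf1 was at 2.35 on the log2 scale (SE 0.955, edgeR adjusted p = 0.486), and its differences were -0.94, 3.59 and 2.02 in replicate numbers 1, 2 and 3. Tnip3, at 2.22 (SE 1.35, edgeR adjusted p = 0.685), had differences of -3.98, 4.39 and 0.94, with replicate 1 on the other side of PBS from replicates 2 and 3 for both genes. Without Ox-mtDNA replicate 2, Traf1 was at 0.42 and Tnip3 at -0.67. Rel was at 0.98 (SE 0.471, edgeR adjusted p = 0.556) with differences of 0.36, 1.15 and 1.22, and at 0.90 with the replicate block (edgeR adjusted p = 0.201). Nfkbia was at 0.82 (SE 0.55, edgeR adjusted p = 0.743) with differences of -0.15, 1.20 and 1.20. Of the rest, Rela was at 1.02, Birc2 at 0.78, Traf2 at 0.36, Relb at 0.85, Nfkb1 at -0.09, Cyld at -0.40 and Ikbkg at -0.44, none past the adjusted threshold. Without Ox-mtDNA replicate 2, Rela was at 0.09, Traf2 at 0.06 and Relb at -2.10, and without Ox-mtDNA replicate 3 Birc2 was at 0.02.

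In this comparison edgeR called 0 of 32 members and 0 of 17555 genes (0%) at an adjusted p of 0.05. DESeq2 called 369 genes (2.1%) and limma-voom with quality weights and the replicate block 423 (2.41%), in either case with 0 members among them, and edgeR with the replicate number as a block called 1 gene (0.0057%), which was no member. With replicates 1 and 2 alone edgeR called 25 genes (0.146%) and 0 members, and 0 genes with the replicate block as well. Without that block, 5 members reached an unadjusted p under 0.05, against 15.4% of all genes. At an unadjusted edgeR p under 0.05, 4 members were higher (Nfkbiz, Map3k8, Tnfaip3 and Traf1) and 0 lower, against 5.88% of all genes higher and 3.93% lower (9.81% in either direction). Of the members 4 (12.5%) did not overlap with PBS and were higher, Map3k8, Nfkbiz, Rel and Tnfaip3, against 7.39% of all genes, and 0 were lower, against 8.08%. Without Ox-mtDNA replicate 1 the count higher was 7, against 12.5% of all genes. Without Ox-mtDNA replicate 2, 5 members were higher and 4 lower, against 14% and 15.4% of all genes. Of the members 21 had a positive log2 fold change (65.6%), against 53.8% of all genes. The median was 0.23 over the members and 0.06 over all genes, and by replicate number the members' medians were -0.51, 0.57 and 0.54. Higher in all 3 replicate numbers were 6 of 32 members (18.8%), a share near the 20.7% of all genes, and 1 member was lower in all of them, against 17.6%.

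The spread between Ox-mtDNA replicates 1 and 2 was wide. Members differed between them by a median of 1.0 on the log2 scale, regardless of sign, against 0.69 over all genes, while the same medians were 0.18 and 0.20 in mtDNA cells and 0.16 and 0.21 in PBS cells. Of the 32 members, 24 were higher in Ox-mtDNA replicate 2 and 16 (50%) differed by more than 1 on the log2 scale, against 34.7% of all genes. Tnip3 differed by 6.81 (replicate 2 over replicate 1), Traf1 by 4.02, Relb by 3.68, Nfkb2 by 2.75, Ier3 by 2.53, and Icam1 and Traf3 by 2.44 each. In the other direction Nfkbiz was at -1.03, Nfkbid at -0.92, Tnip2 at -0.88, Tnfaip3 at -0.87, Ikbkb at -0.83 and Map3k8 at -0.37. Against PBS, 23 members (71.9%) had opposite signs in replicate numbers 1 and 2, compared with 47.2% of all genes. That count matches libraries by number, although pairing of numbers 1 and 2 is not shown.

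Other gene groups also differed between the libraries, and the immediate-early genes had their highest sum in Ox-mtDNA replicate 1, where most members were lower than in replicate 2. The 24 immediate-early genes, the transcription factors and phosphatases that respond first to a stimulus, summed to 14400, 4720 and 2280 CPM in Ox-mtDNA cells, 1300, 1270 and 2510 CPM in mtDNA cells, and 1160, 1100 and 503 CPM in PBS cells. The heat shock genes summed to 51400, 40000 and 10700 CPM in Ox-mtDNA cells, 5460, 6050 and 11000 CPM in mtDNA cells, and 5770, 5560 and 6600 CPM in PBS cells. The summed pDC markers were lowest in Ox-mtDNA replicate 2, at 5290 CPM. Of the 19 pDC markers, 15 had a negative log2 fold change in Ox-mtDNA over PBS cells, with a median of -0.68, and 7 were lower with no overlap, against 8.08% of all genes. Of the 8 type 1 conventional dendritic cell markers, 7 were negative, with a median of -0.92, 4 were lower with no overlap, and they summed to 251 to 382 CPM in Ox-mtDNA cells, 189 to 573 CPM in mtDNA cells and 324 to 643 CPM in PBS cells. Summed monocyte and macrophage markers were 686 to 1150 CPM in Ox-mtDNA cells and 958 to 1120 CPM in mtDNA cells, against 1220 to 2270 CPM in PBS cells, although in Ox-mtDNA over PBS cells 4 of the 8 tested were positive and 4 negative, with a median log2 fold change of 0.00. Type 2 conventional dendritic cell markers summed to 378 to 422 CPM in Ox-mtDNA cells, against 327 to 341 CPM in PBS cells, with 5 of 8 positive, 3 negative and a median log2 fold change of 0.25. All 10 and all 8 genes of those marker lists had a count in some library, and Klf4 stands in both the immediate-early list and the type 2 list. The part of these groups in the results was not tested, and in bulk RNA fewer cells of a type and less RNA per cell cannot be told apart.

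**Figure D3:**
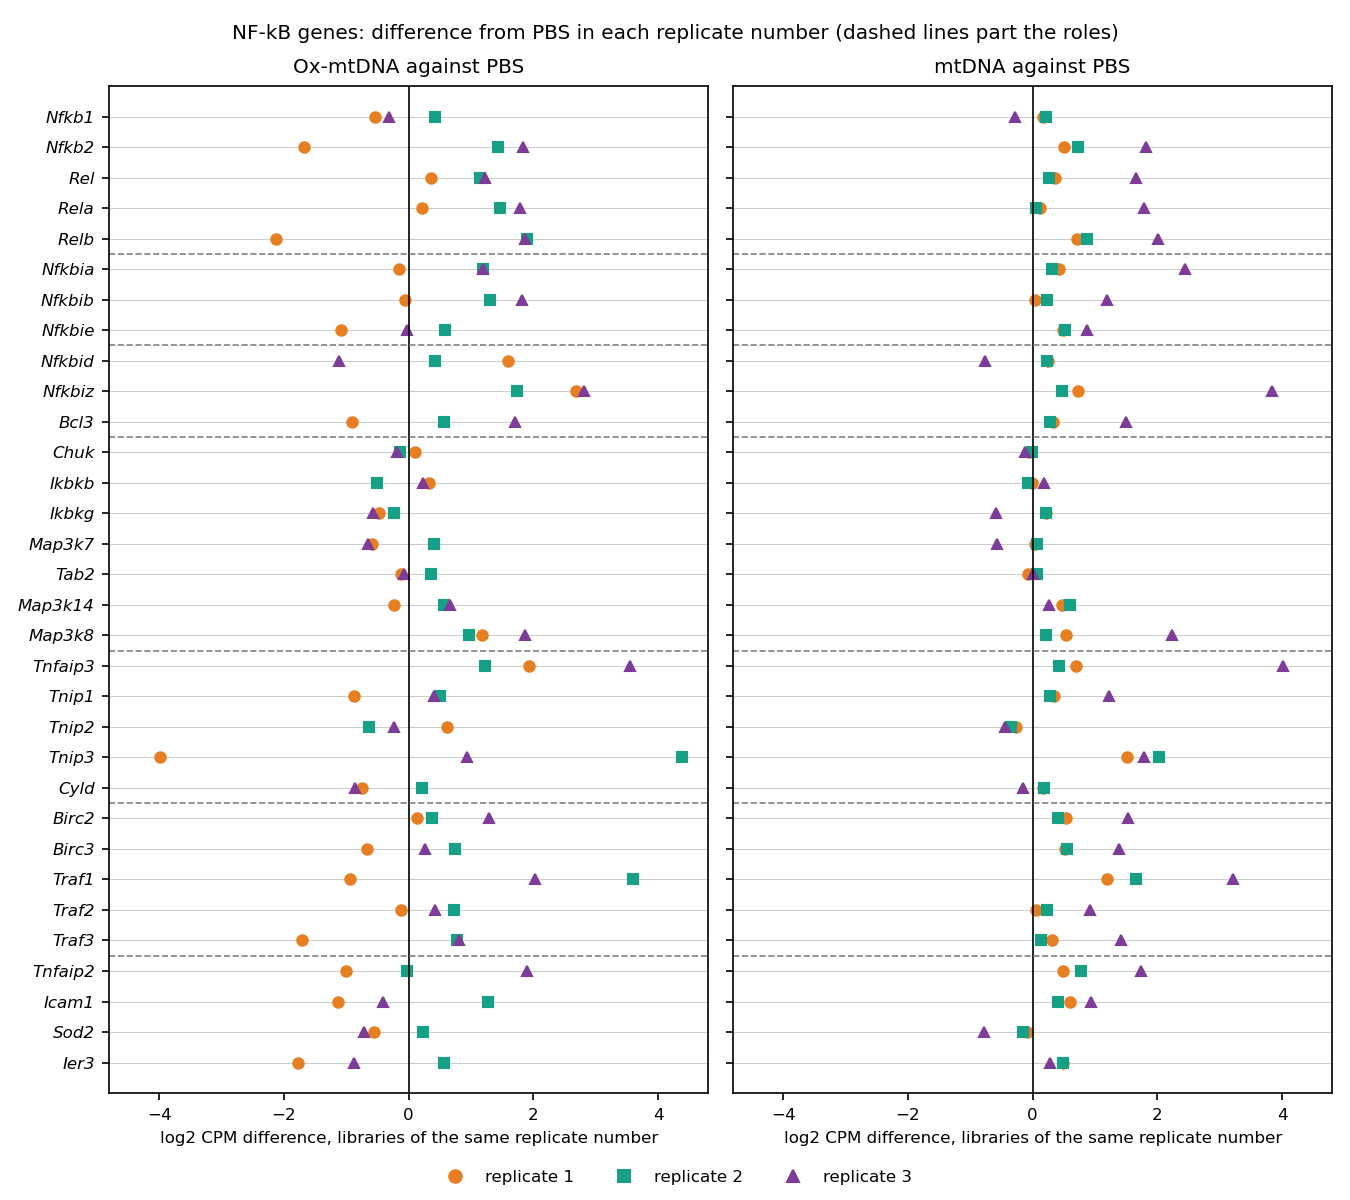
The log2 CPM difference from the PBS library of the same replicate number (horizontal axis) is plotted for each of the 32 NF-kB genes (rows, parted by role), for Ox-mtDNA on the left and mtDNA on the right, with one marker per replicate number. For mtDNA the replicate 1 and 2 markers sit close together and mostly right of zero, with replicate 3 farther right for many genes, whereas for Ox-mtDNA replicate 1 often lies left of zero where replicates 2 and 3 lie right.

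For mtDNA over PBS, the same question for DNA that had not been oxidized, many members were higher by small amounts in replicates 1 and 2 and by large amounts in replicate 3. Tnfaip3 averaged 442 ± 544 CPM in mtDNA cells and 79.6 ± 12.6 CPM in PBS cells (SD, n = 3 each), with a fitted log2 fold change of 2.47 (SE 0.927, edgeR adjusted p = 1). Its differences were 0.69, 0.42 and 4.01 in replicate numbers 1, 2 and 3. Nfkbiz averaged 147 ± 162 CPM in mtDNA cells and 31.1 ± 6.71 CPM in PBS cells, with a fitted log2 fold change of 2.24 (SE 0.749, edgeR adjusted p = 1), with differences of 0.73, 0.47 and 3.83. Map3k8 was at 1.11 (SE 0.418, edgeR adjusted p = 1) with differences of 0.53, 0.21 and 2.23, and Nfkbia at 1.34 (SE 0.556, edgeR adjusted p = 1) with differences of 0.42, 0.31 and 2.44. With replicates 1 and 2 of all groups, the log2 fold changes were 0.57 for Tnfaip3, 0.61 for Nfkbiz, 0.38 for Map3k8 and 0.37 for Nfkbia.

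The TRAF and cIAP adaptors were all higher in mtDNA cells in every replicate number, 5 of 5, with a median log2 fold change of 0.87. Birc3 was at 0.87 (SE 0.389, edgeR adjusted p = 1) with differences of 0.52, 0.55 and 1.39. Traf1 was at 1.89 (SE 0.940, edgeR adjusted p = 1) with differences of 1.20, 1.66 and 3.21. Birc2 was at 1.0 and Traf2 at 0.37, and without mtDNA replicate 3 Birc2 was at 0.21. Of the other named members, Tnip3 was at 1.69 (SE 1.33) with differences of 1.51, 2.02 and 1.79, Rel at 0.95, Relb at 0.80, Nfkb1 at 0.11, Tnip2 at -0.36 and Sod2 at -0.34, none past the adjusted threshold. The edgeR SEs and p-values given here come from the fit of all 9 libraries, so the spread of the Ox-mtDNA libraries enters them. For Tnip3 the Ox-mtDNA values ran from 1.01 to 117 CPM. Without mtDNA replicate 3, Rel was at 0.19.

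In this comparison edgeR again called 0 of 32 members and 0 of 17555 genes (0%) at an adjusted p of 0.05, and the replicate block changed neither count. DESeq2 called 13 genes (0.0741%) and 0 members. Limma-voom with quality weights and the replicate block called 1337 genes (7.62%) and 7 of 32 members, all 7 higher, among them Traf1 (adjusted p = 0.0202), Birc3 (0.0287), Birc2 (0.033) and Tnip3 (0.044). At an unadjusted edgeR p under 0.05, 4 members were higher (Nfkbiz, Map3k8, Tnfaip3 and Nfkbia) and 0 lower, against 2.02% of all genes higher and 0.598% lower. With replicates 1 and 2 alone, 0 members reached that level, against 2.62% of all genes. That fit uses a single estimate of spread for all groups, so the wide spread between Ox-mtDNA replicates 1 and 2 enters it. In replicates 1 and 2, 23 members (71.9%) lay wholly above PBS in mtDNA cells, against 24.1% of all genes, and 0 wholly below, against 22.7%.

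All libraries of mtDNA cells were above all those of PBS cells for 10 of 32 members (31.2%), namely Birc3, Ier3, Map3k8, Nfkbia, Nfkbiz, Rel, Tnfaip3, Tnip3, Traf1 and Traf2, against 5.58% of all genes, and 0 members were wholly below, against 4.96%. Without mtDNA replicate 3 that count was 20 members, against 15.7% of all genes. Higher in all 3 replicate numbers were 22 members (68.8%), against 21.8% of all genes, and 3 were lower in all of them, against 19.3%. In replicate numbers 1 and 2 alone 27 members (84.4%) were higher in both, against 35.2% of all genes, and 1 had opposite signs. A positive log2 fold change was found for 26 members (81.2%), against 52% of all genes. The median was 0.46 over the members and 0.02 over all genes, and by replicate number the members' medians were 0.35, 0.27 and 1.21. The members share the libraries they were measured in and are not independent replicates. B cell markers were lower in mtDNA cells for 9 of 9 genes, with summed levels of 1770 to 3040 CPM in mtDNA cells and 2530 to 3310 CPM in PBS cells and a count of every marker in every library; their part in the result was not tested.

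Ox-mtDNA over mtDNA asked whether oxidation of the DNA made a difference, and with all 3 replicates no member separated the groups. Of 32 members, 0 were past the adjusted threshold in edgeR (0 of 17555 genes, 0%), in DESeq2 (1 gene, 0.0057%) or in limma-voom (14 genes, 0.0797%). At an unadjusted edgeR p under 0.05 there were 0 members, against 2.4% of all genes (0.923% higher and 1.48% lower), and 0 members had groups that did not overlap, against 2.04% of all genes higher and 2.79% lower. Without Ox-mtDNA replicate 2, 9 members were lower with no overlap and 1 was higher, against 8.09% and 7.03% of all genes, and without mtDNA replicate 3 the counts were 2 lower and 4 higher, against 16% and 14%. Birc3 ranked first by p, at -0.65 on the log2 scale (SE 0.388, edgeR adjusted p = 1). Cyld was at -0.46, Ier3 at -0.76, Ikbkg at -0.35 and Nfkbia at -0.52, while Rela was at 0.78 and Tnip2 at 0.30. Nfkb1 was at -0.21, Rel at 0.03 and Relb at 0.05.

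Tnfaip3 and Nfkbiz, the members farthest from PBS under both treatments, had log2 fold changes of -0.02 (SE 0.878) and 0.21 (SE 0.716) between Ox-mtDNA and mtDNA cells. By replicate number the differences of Tnfaip3 were 1.24, 0.81 and -0.47, and those of Nfkbiz were 1.96, 1.27 and -1.01. Map3k8 followed with 0.65, 0.75 and -0.37 around a log2 fold change of 0.21. In replicates 1 and 2 alone Tnfaip3 was at 1.08 and Nfkbiz at 1.70. In those libraries 6 members (18.8%) did not overlap and were higher in Ox-mtDNA cells, a share near the 20.4% of all genes. Another 3 members were lower with no overlap, against 21.8% of all genes. At an unadjusted p under 0.05 the edgeR fit to replicates 1 and 2 held 5 members, against 15% of all genes. The median over the members was -0.05, and 0.04 over all genes, with 13 members positive (40.6%) against 54.2% of all genes. Of the members 0 were higher in all 3 replicate numbers, against 15.1% of all genes, and 1 was lower in all of them, against 13%. A p that misses the threshold does not show that both DNAs acted alike.

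Genes outside the module give its setting. Of 30 other known NF-kB targets 29 were tested, and the list shares Junb and Gadd45b with the immediate-early genes. In Ox-mtDNA over PBS cells 24 had a positive log2 fold change (82.8%, against 53.8% of all genes), with a median of 1.05. By replicate number the targets' medians were -0.28, 1.70 and 1.56, so the median was below PBS in replicate 1. At an unadjusted edgeR p under 0.05, 7 targets were higher and 1 lower, against 5.88% and 3.93% of all genes. In mtDNA over PBS cells 27 were positive (93.1%, against 52% of all genes) with a median of 0.87, and 9 were higher at that level, against 2.02% of all genes. There the medians by replicate number were 0.52, 1.01 and 1.32. The 2 comparisons share the PBS libraries. Cd83, a maturation marker, averaged 148 ± 45.3 CPM in Ox-mtDNA cells, 195 ± 199 CPM in mtDNA cells and 28.0 ± 5.96 CPM in PBS cells (SD, n = 3 each), log2 fold changes over PBS of 2.40 for Ox-mtDNA (edgeR adjusted p = 0.472) and 2.80 for mtDNA (edgeR adjusted p = 1). The chemokine Ccl4 was at 7.44 on the log2 scale (SE 2.25) and Ptgs2, the inducible cyclooxygenase, at 5.65 (SE 1.69) in Ox-mtDNA over PBS cells, each at an edgeR adjusted p of 0.472. In mtDNA over PBS cells the cytokine genes Il12b and Tnf were at 3.45 (SE 0.933) and 2.57 (SE 0.782), and the chemokine Cxcl10 at 2.56 (SE 0.724), each at an edgeR adjusted p of 1. Irf1, an interferon regulatory factor, went the other way in Ox-mtDNA cells, at 157 ± 39.3 CPM in Ox-mtDNA cells and 317 ± 69.9 CPM in PBS cells (log2 fold change -1.01, edgeR adjusted p = 0.472). Between Ox-mtDNA and mtDNA cells, Il12b was at -3.22 (SE 0.925) and Irf1 at -0.74 (SE 0.282), each at an edgeR adjusted p of 1.

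The 37 other genes of the pathway, its receptors, adaptors and ubiquitin ligases, had medians near zero. In Ox-mtDNA over PBS cells 17 were positive (45.9%, against 53.8% of all genes), with a median log2 fold change of -0.02. At an unadjusted edgeR p under 0.05 there were 0, against 9.81% of all genes. In mtDNA over PBS cells 22 were positive (59.5%, against 52% of all genes), with a median of 0.08, and again 0 reached that level, against 2.62% of all genes. The adaptor Myd88 had the smallest p in Ox-mtDNA over PBS cells (log2 fold change -0.69, SE 0.322, edgeR adjusted p = 0.539), and the kinase Ripk1 in mtDNA over PBS cells (-0.47, SE 0.248, edgeR adjusted p = 1). Tnfrsf1b, a receptor for tumour necrosis factor, was at 0.89 in Ox-mtDNA and 0.86 in mtDNA over PBS cells, and Irak4 at -0.49 and -0.50. Higher than PBS in all 3 replicate numbers were 13.5% of these pathway genes under Ox-mtDNA and 24.3% under mtDNA, against 41.4% and 69% of the other targets and 20.7% and 21.8% of all genes.

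**Figure D4:**
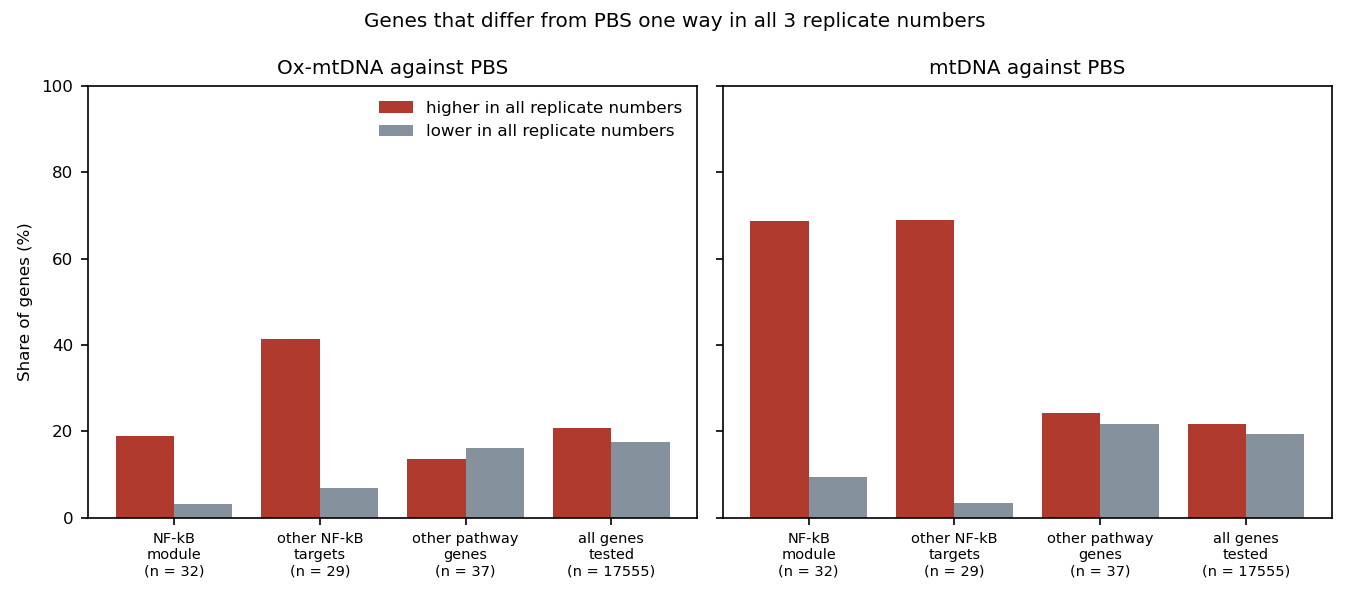
Bars give the share of genes in percent (vertical axis) that differed from PBS in the same direction in all 3 replicate numbers, for Ox-mtDNA (left) and mtDNA (right), in the NF-kB module, the other NF-kB targets, the other pathway genes and all genes tested. Under mtDNA 68.8% of the module and 69% of the other targets were higher throughout, against 21.8% of all genes, and under Ox-mtDNA 18.8% of the module was, against 20.7% of all genes.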

How the data were processed

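RNA of the 9 sorted pDC samples was extracted with TRIzol and RNeasy columns, selected for poly(A) and primed with random hexamers, per the labels' protocols. Reads were processed with fastp 0.23.4, STAR 2.7.11b and featureCounts 2.0.1 on GRCm39, per the submitters' processing notes. The authors deposited raw counts per gene; per the file headers, fragments over exons of GENCODE M34 were counted without strand, for each gene they overlapped, and without counting multiple alignments. Counts of overlapping or antisense genes are therefore uncertain. Samples were grouped by title, all 9 columns were used, and total counts ranged from 16029951 to 25378884.

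Genes were filtered with filterByExpr (minimum count 10), leaving 17555, normalized by TMM and tested with the robust quasi-likelihood F-test of edgeR 4.0.16 in R 4.3.3. A single fit covered the 9 libraries with the 3 groups as its terms, which left 6 residual degrees of freedom, and tests were two-sided, with Benjamini-Hochberg adjustment over all tested genes and a threshold of 0.05. The shift of replicate 3 counts as scatter within groups in that fit. CPM values were computed from the deposited counts with the TMM factors. Differences between libraries of one replicate number are log2 CPM differences with 0.5 counts added. GC content is the median over a gene's transcripts in GENCODE M21. The script was tested on simulated data.

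Same-numbered libraries deviated together (correlations of 0.481 to 0.889 in all 9 pairs), which by the rule used pairs them. Replicates 1 and 2 with different numbers correlated at 0.514 to 0.685 between groups, so pairing of numbers 1 and 2 is not shown. Fits with a replicate block are given as an alternative, for counts of genes and for some named members. Alternatives were DESeq2 1.42.0 (Wald test and size factors), upper quartile factors, limma 3.58.1 with voom quality weights and the block, no filter or 1 CPM in 3 libraries, replicates 1 and 2 only, only the 6 libraries compared, and each replicate left out. The members and gene lists were chosen with earlier results of these data known. Values per library are given for the 12 members with the smallest p in each comparison and for Nfkb1, Nfkbia, Tnfaip3, Rel and Relb; of every other list, up to 4 genes with the smallest p are named. Nfkb2 and the genes whose ranges are given were added after their values were seen.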

Additional observations from a re-analysis of the deposited data

How the results depend on the processing

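Calls depended on the test. For Ox-mtDNA over PBS, edgeR called 0 genes, DESeq2 369, limma-voom with quality weights and block 423, replicates 1 and 2 only 25, and the replicate block 1; for mtDNA over PBS, DESeq2 called 13 and limma-voom 1337, with 7 members; for Ox-mtDNA over mtDNA, DESeq2 called 1 and limma-voom 14. With the replicate block as well, replicates 1 and 2 gave 0 calls in place of the 25. In the fits of all 9 libraries the block changed no other call. With it, 6, 7 and 0 members reached an unadjusted edgeR p under 0.05, in the order of comparisons above. Among all 17555 genes, 3345, 998 and 1195 did so in the same order. The cause of the differences in calls was not tested.

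Members that did not overlap and were higher numbered 7, 23 and 6 with replicates 1 and 2 only, for Ox-mtDNA over PBS, mtDNA over PBS and Ox-mtDNA over mtDNA, beside 21%, 24.1% and 20.4% of all genes; these settings for that count were chosen after seeing the data. Leaving out 1 replicate gave 4 to 7, 10 to 20 and 0 to 4 higher (12.5%, 15.7% and 14% of all genes where the count was highest) and 0 to 4, 0 to 2 and 0 to 9 lower (15.4%, 8.12% and 8.09%). The median over the members ran from -0.36 to 0.54, 0.12 to 0.77 and -0.52 to 0.11 when 1 replicate was left out, so for Ox-mtDNA over PBS and over mtDNA it has no settled sign, and no genes or members were called by edgeR in those fits. Upper quartile scaling removed Rel from the members not overlapping under both treatments.

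Of the log2 fold changes of the named members under the alternatives, 666 kept direction and side of the threshold, 4 passed it (limma-voom, mtDNA over PBS) and 34 changed sign. For Ox-mtDNA over PBS, limma-voom gave -0.56 for Tnip3 and -0.66 for Relb. For Ox-mtDNA over mtDNA, Relb was at -1.42 (limma-voom), -0.02 (no filter), -0.25 (replicate block) and -0.38 (replicates 1 and 2 with block), and Tnfaip3 at 0.78 (limma-voom), 0.37 (replicate block), 1.08 (replicates 1 and 2) and 1.04 (with block as well). Nfkbia was at 0.25 and 0.22 in the last 2 settings, and Rel at -0.01 with upper quartile factors. The other changes of sign came from leaving out 1 replicate. In Ox-mtDNA over PBS, Tnip3 then ran from -0.67 to 2.93 and Relb from -2.10 to 1.42, each lowest without Ox-mtDNA replicate 2, and Nfkb1 from -0.51 to 0.23. In mtDNA over PBS, Nfkb1 ran from -0.28 to 0.45. In Ox-mtDNA over mtDNA the ranges were -2.90 to 0.61 for Relb, -0.81 to 1.85 for Tnfaip3, -0.26 to 0.78 for Rel, -0.62 to 0.17 for Nfkb1, -0.86 to 0.43 for Nfkbia, -0.10 to 1.35 for Nfkbid, -0.15 to 1.23 for Rela and -0.27 to 1.06 for Nfkbib. Members on few reads in replicate 3 are the least certain.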
